A study of Mus musculus with 19 samples.

Results

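The genes described here are 8 Toll-like receptors (Tlr1, Tlr2, Tlr3, Tlr4, Tlr6, Tlr7, Tlr9 and Tlr13), the co-receptor Cd14 and the adaptor Myd88. They were chosen by name: each is the row of the count files whose Ensembl identifier carries that symbol in GENCODE M21. All 10 were found among the 48709 genes of each file, and all 10 passed the filter on low counts. The rule itself uses no measured value, but the genes were chosen with earlier results of these data known. They were measured by RNA-seq in 19 libraries of hippocampal CA1 tissue from mice aged 7 months. The labels give the libraries as separate samples and name no animal, so p-values measure the spread between these samples. WT control (n = 6) were littermates without the transgenes, the APPPS1-21 mice formed the groups APP control, with n = 6, and APP anti-miR-mix, with n = 7, and all 3 groups received lipid nanoparticles injected into the dorsal hippocampus and were trained in the water maze. The nanoparticles carried a control oligonucleotide in both control groups and, in the third group, inhibitors of miR-146a-5p, of miR-148a-3p and of miR-181a-5p. APPPS1-21 mice carry mutant human APP under Thy1 regulatory sequence, which is active in neurons, so amyloid comes from a neuronal transgene and not from the mouse gene. The titles of the WT control libraries also contain the name of the mixture, and the study describes these mice as given the control oligonucleotide, which is how they were read here.

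Toll-like receptors bind molecules of microbes and of damaged cells and are a main way in which microglia, the resident macrophages of the brain, sense their surroundings. Tlr2 pairs with Tlr1 or Tlr6 at the cell surface to bind lipopeptides, Tlr4 binds lipopolysaccharide with the help of Cd14, and Tlr3, Tlr7, Tlr9 and Tlr13 bind nucleic acids in endosomes. All of these receptors except Tlr3 signal through Myd88, which recruits the Irak kinases and leads to NF-kB and to the transcription of cytokines. miR-146a-5p is known as a microRNA that NF-kB induces and that represses Irak1 and Traf6.

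The sequences that define the treatment are the 3 microRNAs and the oligonucleotides against them. In the mature mouse microRNAs below (RefSeq, GRCm38.p6) the capitals mark the seed, bases 2 to 8, and the 3 seeds differ. miR-146a-5p lies at chr11:43374435-43374456 on the minus strand, miR-148a-3p at chr6:51269829-51269850 on the minus strand, and miR-181a-5p at chr1:137966468-137966490 and chr2:38852741-38852763, both on the plus strand.
miR-146a-5p: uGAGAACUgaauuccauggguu
miR-148a-3p: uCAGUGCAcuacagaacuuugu
miR-181a-5p: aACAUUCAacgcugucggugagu

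The inhibitors as the study lists them are perfect complements of these microRNAs, and the capitals mark the bases that pair with the seed. That is all 7 seed bases for the inhibitor of miR-146a-5p and 6 of the 7 for each of the other inhibitors. The oligonucleotide listed as negative control for the inhibitors holds no complement of the seed of any mouse microRNA in the RefSeq table used.
inhibitor of miR-146a-5p: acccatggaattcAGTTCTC
inhibitor of miR-148a-3p: caaagttctgtagTGCACT
inhibitor of miR-181a-5p: actcaccgacagcgtTGAATG
negative control: taacacgtctatacgccca

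In the 3' untranslated region of the longest coding transcript of each gene (GENCODE M21), the 7-base complement of the miR-181a-5p seed was found 2 times in Tlr4 and 1 time in Tlr13, and no region of the other 8 genes held a complement of any of the 3 seeds. Among 15357 tested genes with such a region, 17.9% held the complement for miR-181a-5p, 14.7% that for miR-148a-3p and 12.2% that for miR-146a-5p, and 34.4% held at least 1 of them. The 2 of 10 genes with a miR-181a-5p match are thus near the share of all genes. The regions are short in Tlr2 (148 bases), Tlr1 (166 bases) and Cd14 (233 bases), against a median of 1128 bases over those genes. A match is a run of letters and not a measured site, and the microRNAs themselves were not measured in these libraries of polyadenylated RNA.

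Total counts ranged from 19362343 to 37018917 per library, and the lowest raw count of any of the 10 genes was 11, for Tlr6 in WT control. The genotype labels matched the transgenes: the normalized counts of App ran from 49038 to 54801 in WT mice and from 65315 to 80752 in APPPS1-21 mice, and those of Thy1 from 18117 to 20734 and from 36153 to 62866. Some libraries stood apart from their group. WT control 1 and 5 had 154 and 251 normalized counts of Cst7, a gene of plaque-associated microglia, where the rest of the group held 27.2 to 54.9, and the highest Gfap. APP control 5 and 6 had the lowest Cst7 of their group (338 and 657 against 1917 to 2989) and the lowest Gfap, and APP control 5 alone held 1209.5 normalized counts of the neutrophil gene S100a8, against at most 31.9 in any other library. Calls among the 10 genes that changed without WT control 1 and 5, or without APP control 5 and 6, are given beside the result. Fewer cells of a type and less RNA per cell cannot be told apart in tissue libraries.

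APPPS1-21 mice had more RNA of 6 of the 10 genes than WT mice. Cd14, Tlr7, Tlr1, Tlr13, Tlr6 and Tlr2 exceeded WT control in the untreated APPPS1-21 mice, by 3.25-fold for Cd14 and by 1.79-fold for Tlr2 at the ends of that range. None was lower with this scaling over all genes, and Tlr4, Tlr9, Myd88 and Tlr3 did not pass the test. Scaled instead to lineage genes of microglia, which were themselves higher, only Cd14 of the 6 kept its call, as the last section gives. The test was the DESeq2 Wald test over 19297 genes, with a Benjamini-Hochberg adjusted p below 0.05 as the threshold. Of all genes 3.66% were higher and 1.05% lower by this rule. In 5 of the 10 genes every APP control library lay above every WT control library, which held for 1.2% of all genes. The median log2 fold change of the 10 genes was 0.95, against -0.01 over all genes tested, and all 10 were above 0, against 45.6% of all genes.

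**Figure D1:**
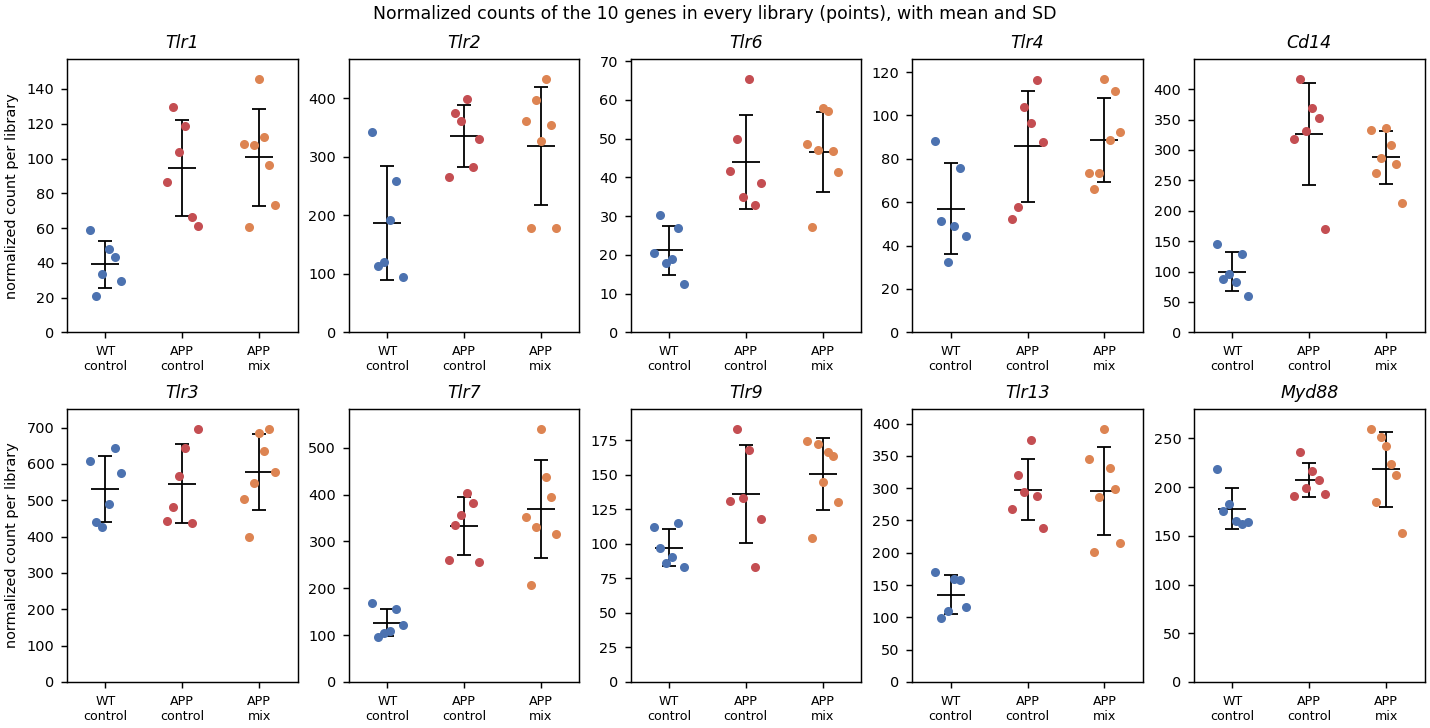
Normalized counts (y axes, from 0) of each of the 10 genes in WT control, APP control and APP anti-miR-mix (APP mix), 1 point per library, with the mean and SD of each group as lines. The points of the APPPS1-21 groups lie above those of WT control for Cd14, Tlr7, Tlr1 and Tlr13 and overlap with them for Tlr3, Tlr4, Tlr9 and Myd88.

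Among the surface receptors, both partners of Tlr2 were higher in APP control. Tlr1, which joins Tlr2 to bind triacylated lipopeptides, had 21.2 normalized counts in the lowest WT control library, 38.5 in the median and 58.9 in the highest. In APP control the same values were 61.4, 95.2 and 129.6, so the groups did not overlap, and in APP anti-miR-mix they were 60.8, 108 and 146. APP control exceeded WT control by 2.38-fold (95% confidence interval 1.70 to 3.31, log2 fold change 1.25, SE 0.25, DESeq2 adjusted p = 3.16e-05). Tlr6, which joins Tlr2 to bind diacylated lipopeptides, was the least abundant of the 10 genes. It had 12.6, 19.7 and 30.2 normalized counts (lowest, median and highest) in WT control and 32.8, 40.0 and 65.3 in APP control, again without overlap, and 27.3, 47.0 and 57.8 in APP anti-miR-mix. The difference between the control groups was 2.09-fold (1.52 to 2.87, DESeq2 adjusted p = 0.000361). Tlr1 and Tlr6 are neighbours on chromosome 5 (GRCm38, 64924679 to 64933563 and 64952031 to 64960097, both on the minus strand) and are near-identical in part: 454 of the 3332 distinct 50-base stretches of the Tlr1 transcripts, the length of a read, also occur in Tlr6. How reads that fall in these stretches were counted is not given in the sources used here, so the split between the pair is uncertain.

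Tlr2 itself was the least certain call. Its normalized counts in WT control were 343, 113, 120, 191, 258 and 94.8 in libraries 1 to 6. They were 266, 346 and 399.7 (lowest, median and highest) in APP control and 178, 355 and 433 in APP anti-miR-mix. The libraries WT control 1 and 5, which had the most Cst7 of their group, also had the most Tlr2, and WT control 1 lay within the range of APP control. The log2 fold change was 0.84 (SE 0.27, DESeq2 adjusted p = 0.0434). Without WT control 1 and 5 it was 1.36 (DESeq2 adjusted p = 2.49e-06), and without APP control 5 and 6 it was 0.90 (adjusted p = 0.107). With edgeR's quasi-likelihood test Tlr2 did not pass (log2 fold change 0.84, adjusted p = 0.123).

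Tlr4, the lipopolysaccharide receptor, had 32.5, 50.2 and 88.3 normalized counts (lowest, median and highest) in WT control, 52.3, 92.2 and 116 in APP control and 66.1, 88.6 and 117 in APP anti-miR-mix. Of the 6 APP control libraries 3 lay above all WT control libraries, and the log2 fold change of 0.59 (SE 0.24) did not pass the test (DESeq2 adjusted p = 0.149). Without WT control 1 and 5 it was 0.96 and passed (adjusted p = 0.0021), and without APP control 5 and 6 it was 0.44 and did not (adjusted p = 0.363). Cd14, a protein anchored to the membrane by lipid that hands lipopolysaccharide to Tlr4 and lipopeptides to Tlr2, had the largest fold change of the 10 genes. Its normalized counts were 59.4, 91.4 and 145 in WT control, 169, 342 and 416 in APP control and 212, 287 and 336 in APP anti-miR-mix. The control groups did not overlap, and APP control 6 was the low library with 169 normalized counts, while the other 5 held 318 to 416. The log2 fold change was 1.70 (SE 0.20, DESeq2 adjusted p = 5.61e-14), or 3.25-fold (2.47 to 4.27), and it was 1.83 without APP control 5 and 6.

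The endosomal receptors differed among themselves. Tlr7, a receptor for single-stranded RNA, had 96.7, 116 and 168 normalized counts (lowest, median and highest) in WT control, 256, 346 and 403 in APP control and 207, 353 and 540.3 in APP anti-miR-mix, with no overlap of either APPPS1-21 group with WT control. APP control exceeded WT control by 2.62-fold (2.02 to 3.41, DESeq2 adjusted p = 3.44e-10). Tlr13, a mouse receptor for bacterial ribosomal RNA, likewise had 99.7, 136 and 169.7 in WT control, 238, 291 and 375 in APP control and 201, 298 and 392 in APP anti-miR-mix. The groups again did not overlap, and the difference was 2.18-fold (1.74 to 2.75, DESeq2 adjusted p = 1.09e-08). Tlr7 (chromosome X, 167304929 to 167330558) and Tlr13 (chromosome X, 106143204 to 106160493) share no 50-base stretch with any other annotated transcript.

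Tlr9, the receptor for unmethylated CpG DNA, had 83.4, 93.4 and 115 normalized counts in the WT control group, 83.4, 132 and 183 in APP control and 104, 164 and 174 in APP anti-miR-mix. In APP control 5 libraries lay above all of WT control and APP control 5 lay at the bottom of its range. The log2 fold change of 0.48 (SE 0.17) did not pass the test (DESeq2 adjusted p = 0.0751). It was 0.66 without APP control 5 and 6 (adjusted p = 0.000933) and 0.61 without WT control 1 and 5 (adjusted p = 0.0277), and passed in both. Tlr3, the receptor for double-stranded RNA and the one that signals through Ticam1 in place of Myd88, showed no detectable difference. It had 427, 532 and 643 normalized counts in the WT control group, 437, 524 and 696 in APP control and 399, 578 and 696 in APP anti-miR-mix, and the 95% confidence interval of its log2 fold change between the control groups ran from -0.25 to 0.33. Its exons overlap those of Gm45542 on the other strand over 381 bases, and the strandedness of the counting is not given in the sources used here.

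Myd88, the shared adaptor (chromosome 9, 119335934 to 119341411, with 290 bases of exon that overlap Acaa1a on the other strand), had 162, 170.1 and 219 normalized counts in the WT control group, 191, 203 and 237 in APP control and 153, 224 and 259.8 in APP anti-miR-mix. Its log2 fold change between the control groups was 0.22 (SE 0.12, DESeq2 adjusted p = 0.416), with a 95% confidence interval from -0.02 to 0.46.

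**Figure D2:**
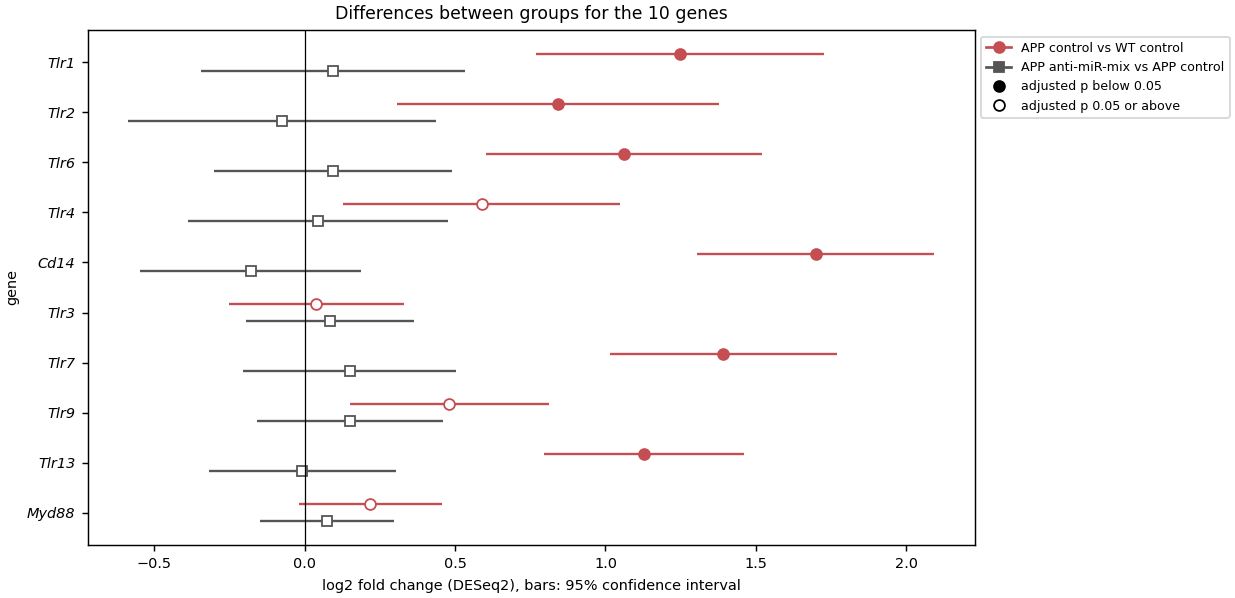
Log2 fold changes (x axis, DESeq2) of the 10 genes with 95% confidence intervals, for APP control against WT control (circles) and APP anti-miR-mix against APP control (squares); filled symbols had an adjusted p below 0.05. The 6 filled circles run from 0.84 for Tlr2 to 1.70 for Cd14, and all squares are open and lie between -0.18 and 0.15.

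No difference between the treated and the untreated APPPS1-21 mice was detectable in any of the 10 genes. Relative to APP control, the treated group had the lowest log2 fold change in Cd14 (-0.18, 95% confidence interval -0.55 to 0.19) and the highest in Tlr9 (0.15, -0.16 to 0.46), and the median of the 10 genes was 0.08. All 10 intervals included 0, and none of the 10 genes had an unadjusted p below 0.05 (DESeq2 adjusted p = 1.00 for each). For Tlr13 a log2 change of up to 0.32 in the negative or 0.30 in the positive direction remained possible, for Myd88 one from -0.15 to 0.30 and for Tlr2, with the widest interval, one from -0.59 to 0.44. Of all 19297 genes 0.0% were called by DESeq2 and 552 had an unadjusted p below 0.05, and edgeR also called 0 genes. Without APP control 5 and 6, DESeq2 called 14 genes and again none of the 10, with Cd14 at -0.32 (adjusted p = 0.791) and Tlr9 at -0.03. Tlr4 and Tlr13, which hold the seed complement for miR-181a-5p, had log2 fold changes of 0.04 and -0.01.

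The treated APPPS1-21 mice were also compared with WT control, whose libraries this comparison shares with the first one. APP anti-miR-mix exceeded WT control for 7 of the 10 genes, where 5.59% of all genes were higher and 3.36% lower. These were Tlr7 with a log2 fold change of 1.54, Cd14 with 1.52, Tlr1 with 1.34, Tlr6 with 1.15, Tlr13 with 1.12, Tlr2 with 0.77 (adjusted p = 0.0405) and Tlr9 with 0.63 (adjusted p = 0.00251). Tlr4 (0.63, adjusted p = 0.053), Myd88 (0.29, adjusted p = 0.0938) and Tlr3 (0.12, adjusted p = 0.735) did not pass. The calls of Tlr2 and Tlr4 depended on the libraries and on the test. Tlr2 passed in 14 of 29 alternatives, with 1.29 without WT control 1 and 5 (adjusted p = 4.14e-06) and 0.77 without APP control 5 and 6 (adjusted p = 0.0894), and not with edgeR (adjusted p = 0.0992). Tlr4 passed in 11 of 29, with 1.00 without WT control 1 and 5 (adjusted p = 0.000504) and 0.63 without APP control 5 and 6 (adjusted p = 0.0471). Myd88 passed in 4 of 29. In 4 genes (Cd14, Tlr1, Tlr7 and Tlr13) every APP anti-miR-mix library lay above every WT control library, against 2.52% of all genes.

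The genes also changed places in the order of their levels. Levels of different genes were compared as reads per kilobase of exon scaled to the total count of the library (RPKM), computed from the raw counts and the union of annotated exons. In WT control Tlr3 came first (3.44 ± 0.586 RPKM, SD, n = 6), before Myd88 (2.34 ± 0.332), Tlr2 (2.11 ± 1.13), Cd14 (1.96 ± 0.649), Tlr13 (1.06 ± 0.242), Tlr7 (1.05 ± 0.251) and Tlr9 (0.946 ± 0.139), and neighbours in this order overlapped. A gap followed, and Tlr1 (0.396 ± 0.142), Tlr4 (0.347 ± 0.132) and Tlr6 (0.193 ± 0.0592) closed the order. In APP control Cd14 stood first by its mean, at 6.53 ± 1.72 RPKM (n = 6), but its range of 3.36 to 8.46 overlapped that of Tlr2 (3.01 to 4.56). Tlr2 (3.86 ± 0.627), Tlr3 (3.62 ± 0.708), Tlr7 (2.82 ± 0.535), Myd88 (2.79 ± 0.257) and Tlr13 (2.39 ± 0.386) followed with overlapping ranges, and Tlr9 (1.36 ± 0.362), Tlr1 (0.979 ± 0.295), Tlr4 (0.535 ± 0.160) and Tlr6 (0.407 ± 0.112) lay below the range of Tlr13. APP anti-miR-mix had Cd14 (5.77 ± 0.867, n = 7) before Tlr3 (3.85 ± 0.688) and Tlr2 (3.67 ± 1.16), and the other 7 genes in the same order as APP control. All neighbours in the order of this group overlapped. The order of close neighbours depended on the length used: per kilobase of the longest transcript, Tlr3 preceded Tlr2 in APP control as well, and Tlr4 preceded Tlr1 in WT control.

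**Figure D3:**
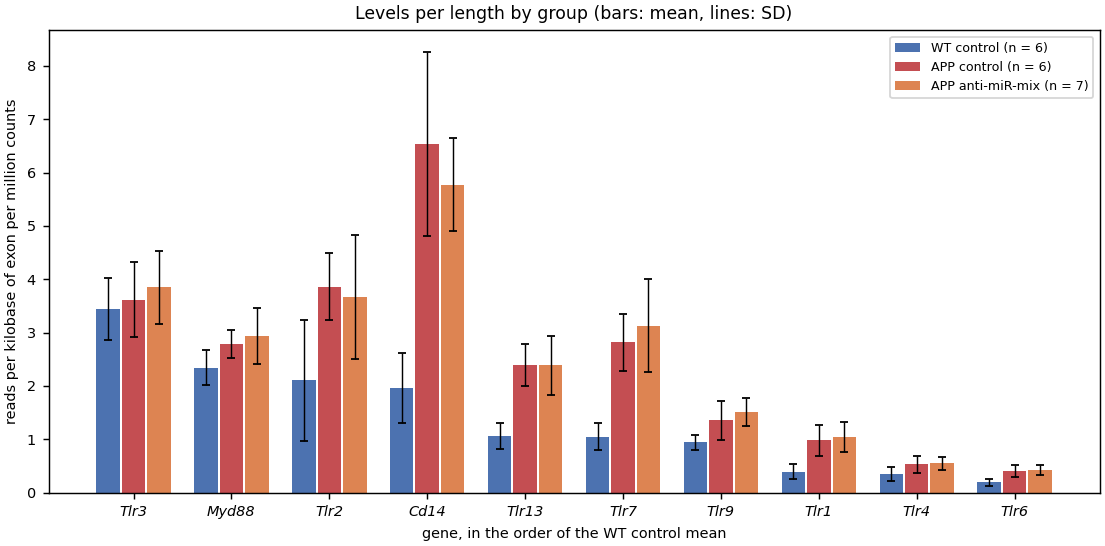
Mean reads per kilobase of exon scaled to library size (RPKM, y axis, from 0) of the 10 genes, in the order of their WT control mean (x axis), in WT control, APP control and APP anti-miR-mix; lines are the SD. Cd14 lies below Tlr3, Myd88 and Tlr2 in WT control at 1.96 and first in APP control at 6.53, while Tlr3 stays between 3.44 and 3.85 in all groups.

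Genes of microglia moved with these receptors. All 10 genes of a microglia lineage list (among them Csf1r, Aif1, C1qa, Itgam and Spi1) rose in APP control relative to WT control, with a median log2 fold change of 1.11, and their summed level was 11589.7 to 20344 normalized counts in WT control, 21333 to 42153 in APP control and 25246 to 41094 in APP anti-miR-mix. Of a homeostatic list 8 of 10 genes were higher (median 0.85) and of a plaque-associated list 12 of 16 (median 1.38). For these and the following lists the shares of all genes were 3.66% higher and 1.05% lower. No gene of these lists was called when APP anti-miR-mix and APP control were compared. Of 6 markers of border macrophages, which also carry Toll-like receptors, 2 were higher (median 0.79), at far lower sums of 121 to 229 normalized counts in WT control, 145 to 440.3 in APP control and 230.1 to 414 in APP anti-miR-mix. No marker of monocytes and neutrophils (6 tested of 8) or of lymphocytes (4 of 5) was called. The neutrophil and monocyte sum was 733 to 3293 in WT control, 416 to 4945 in APP control and 193 to 2254 in APP anti-miR-mix, and its most abundant gene was Lcn2. Among the other lists 1 of 7 astrocyte genes (Gfap) and 1 of 5 endothelial genes were higher, 1 of 6 neuron genes was lower, and none of 5 oligodendrocyte, 4 tested choroid plexus and 3 CA1 pyramidal genes was called. None of the markers found in the files was at 0 in all libraries of a group. Their part in the differences of the 10 genes was not tested.

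Set against the microglia lineage list, the 10 genes differed in direction. For each library the mean log2(normalized count + 1) of the 10 lineage genes was subtracted from that of the gene, which is a description with no test. Cd14 went from -3.03 ± 0.211 (SD, n = 6) in WT control to -2.42 ± 0.400 in APP control and -2.66 ± 0.144 (n = 7) in APP anti-miR-mix, with 5 of 6 APP control libraries above all of WT control. Tlr7 went from -2.67 ± 0.198 to -2.36 ± 0.440, and Tlr1 (-4.37 ± 0.320 and -4.20 ± 0.123), Tlr13 (-2.57 ± 0.197 and -2.51 ± 0.308), Tlr6 (-5.21 ± 0.440 and -5.27 ± 0.286) and Tlr2 (-2.23 ± 0.370 and -2.34 ± 0.333) moved by less than the SD of WT control. Tlr9 was lower relative to the list, at -3.02 ± 0.214 in WT control and -3.66 ± 0.166 in APP control with no overlap, although its own level was not lower. Myd88 (-2.15 ± 0.325 and -3.02 ± 0.377) and Tlr3 (-0.59 ± 0.279 and -1.65 ± 0.491) were also lower, with 5 of 6 APP control libraries below all of WT control. Tlr4 was at -3.85 ± 0.233 and -4.34 ± 0.751, with the widest spread in APP control. Single libraries carried some of these differences. APP control 5 held the highest value of its group for Tlr1, Tlr4, Tlr7, Tlr13, Cd14 and Myd88, and APP control 6 for the other 4 genes. Without APP control 5 the difference between the control groups went from 0.31 to 0.14 for Tlr7, from 0.05 to -0.057 for Tlr13 and from 0.61 to 0.46 for Cd14. Without APP control 5 and 6 it was 0.078 for Tlr7, -0.12 for Tlr13, -0.19 for Tlr6 and -0.90 for Tlr4. For Tlr2, at -0.11 with all libraries, it was -0.31 without APP control 5 and 6 and 0.082 without WT control 1 and 5, while Tlr3, Tlr9 and Myd88 stayed lower in each case. Relative to the homeostatic list, whose median change was smaller, the differences were 0.97 for Cd14, 0.67 for Tlr7, 0.54 for Tlr1, 0.42 for Tlr13, 0.30 for Tlr6, 0.25 for Tlr2, -0.13 for Tlr4, -0.28 for Tlr9, -0.51 for Myd88 and -0.70 for Tlr3. Tlr2 and Tlr6 thus lay on different sides of 0 against the 2 lists.

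**Figure D4:**
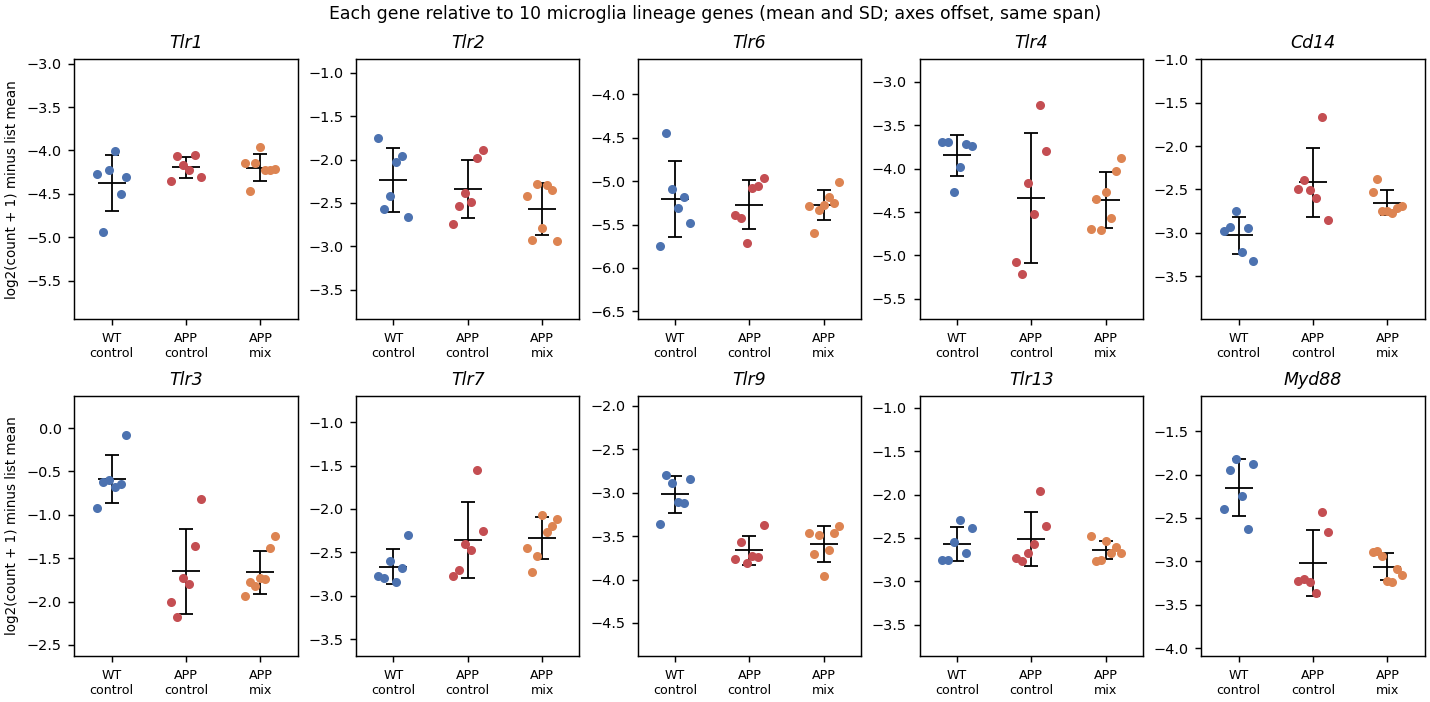
Each gene's log2(normalized count + 1) minus the mean of the same over 10 microglia lineage genes (y axes, same span in each panel, different offset), 1 point per library with the mean and SD of WT control, APP control and APP anti-miR-mix (APP mix). Cd14 lies higher in the APPPS1-21 groups, Tlr3, Tlr9 and Myd88 lie lower, and Tlr1, Tlr2, Tlr6 and Tlr13 overlap between the groups.

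Within groups, most of the receptors varied together. Over the 19 libraries, as deviations from the mean of the own group, the 45 pairs of the 10 genes had a median Pearson r of 0.52, from -0.05 for Tlr3 and Cd14 to 0.90 for Tlr1 and Tlr13. The values of a library share its preparation and depth, and these correlations are given as a description. Tlr1 and Tlr13 also followed the mean of the microglia lineage list (r = 0.89 and 0.81), as did Tlr9 (0.84), Tlr2 (0.80) and Cd14 (0.75), while Tlr3 (0.42) and Tlr4 (0.27) followed it least. Among 12758 genes with a mean of at least 100 normalized counts, those nearest to Tlr1 were C3ar1, the receptor of complement fragment C3a (r = 0.94), Capg (0.93) and Myo1f (0.93). Nearest to Tlr2 were Flnc, Lcp1 and Apobec1 (each 0.93), and nearest to Tlr7 were Cflar (0.89), Cd53 (0.88) and Mcl1 (0.88). Tlr13 was nearest to B4galt1, Fcgr2b and Arrdc4 (each 0.91), and Cd14 to Fcgr3 (0.92), Aspg (0.91) and Sh3tc1 (0.90). For Tlr6 they were Poc1b (0.82), Cep128 (0.82) and 1810058I24Rik (0.78).

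RefSeq start-site windows (250 bases before to 50 after the start, GRCm38.p6) were on hand for 7 of the 10 genes, 9 windows in all since Tlr1 and Tlr6 have 2 each, and not for Tlr4, Tlr7 and Cd14. Those of Tlr1 and Tlr13 are printed because the pair had the highest correlation among the 10 genes, and that of Tlr3 because its level differed least between WT control and APP control. Capitals mark matches on either strand to GAGGAA, the core bound by PU.1 (the product of the lineage gene Spi1), to TGANTCA (AP-1), GGGANNTTCC (NF-kB) or GAAANNGAAA (a pair of interferon response sites).
Tlr1, chr5:64933509-64933808, minus strand: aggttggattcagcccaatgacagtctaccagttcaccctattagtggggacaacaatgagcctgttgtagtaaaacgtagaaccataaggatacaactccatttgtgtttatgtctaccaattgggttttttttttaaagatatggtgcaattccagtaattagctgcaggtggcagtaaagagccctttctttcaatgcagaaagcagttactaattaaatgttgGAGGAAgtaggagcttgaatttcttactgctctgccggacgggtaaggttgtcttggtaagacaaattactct
Tlr13, chrX:106143025-106143324, plus strand: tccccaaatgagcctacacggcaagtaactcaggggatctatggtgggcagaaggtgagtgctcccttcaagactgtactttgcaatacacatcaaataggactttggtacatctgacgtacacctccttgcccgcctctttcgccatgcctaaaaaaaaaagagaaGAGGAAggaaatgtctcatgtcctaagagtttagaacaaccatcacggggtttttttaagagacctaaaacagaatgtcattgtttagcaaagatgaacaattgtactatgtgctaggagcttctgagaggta
Tlr3, chr8:45410331-45410630, minus strand: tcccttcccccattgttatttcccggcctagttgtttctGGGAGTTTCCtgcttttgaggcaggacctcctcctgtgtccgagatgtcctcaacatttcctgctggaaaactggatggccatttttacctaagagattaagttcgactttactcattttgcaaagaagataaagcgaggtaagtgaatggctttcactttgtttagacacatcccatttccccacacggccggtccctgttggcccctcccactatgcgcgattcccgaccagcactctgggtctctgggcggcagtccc

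The printed window of Tlr1 and that of Tlr13 each held 1 GAGGAA, the other Tlr1 window held none, and that of Tlr9 held 2 together with 1 TGANTCA. The PU.1 core was thus in 3 of the 9 windows, against 27.4% of 21262 windows of protein-coding genes, and TGANTCA was in 6.99% of them. GGGANNTTCC was found in the Tlr3 window alone among the 7 genes (1.44% of all windows), and GAAANNGAAA in 1 of the 2 Tlr6 windows and in that of Myd88 (3.35%). The Tlr2 window held none of the 4 motifs as spelled here. Looser spellings, among them other forms of the NF-kB site, were not searched in any window. These matches are letters in a window, and binding was not measured.

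Beyond the 10 genes, 70 further genes were examined in lists by role, including a list of 7 pattern receptors other than Toll-like receptors. Of the 70 genes 68 passed the filter on low counts. Relative to WT control 19 of them were higher in APP control and none was lower, with a median log2 fold change of 0.14, where 3.66% of all genes were higher and 1.05% lower. In APP anti-miR-mix none was called against APP control and 21 were higher against WT control, where 5.59% of all genes were. Over the alternatives the 19 became 14 to 22 and the 21 became 18 to 23, and the 19 were 15 with edgeR and 22 without WT control 1 and 5. Of the other Toll-like receptors 1 of 3 tested was higher, Tlr12, a receptor for a profilin of parasites, with a log2 fold change of 1.02 (adjusted p = 0.00206), while Tlr5, the flagellin receptor, had 0.06 and Tlr8, with few counts, 0.52 (SE 0.65). Accessory proteins at the surface included 2 of 5 that were higher, Cd180 (1.41, SE 0.31) and Ly86 (1.25, SE 0.24), which form a complex related to that of Tlr4. Ly96, the obligate partner of Tlr4 in binding lipopolysaccharide, had 0.15 (SE 0.22), and Lbp, which carries lipopolysaccharide to Cd14, had 0.85 (SE 0.42, adjusted p = 0.328).

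Of the machinery of the endosomal receptors 5 of 7 genes were higher (median 0.43). Unc93b1, the chaperone that carries these receptors to endosomes, went from 757 ± 176 to 1262 ± 364 normalized counts (WT control and APP control, SD, n = 6 each), a log2 fold change of 0.74 (DESeq2 adjusted p = 0.00236). The lysosomal proteases Ctss (1.23), Ctsl (0.70) and Lgmn (0.41), which cleave endosomal Toll-like receptors, were also higher. Among the adaptors Ticam2, which links Tlr4 to Ticam1, had 1.36 (SE 0.33, adjusted p = 0.00188) and Ticam1, the adaptor of Tlr3, 0.35 (SE 0.11, adjusted p = 0.0258). Tirap, which bridges Tlr2 and Tlr4 to Myd88, had 0.26 (SE 0.14) and Sarm1 -0.07 (SE 0.07), and neither passed.

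**Figure D5:**
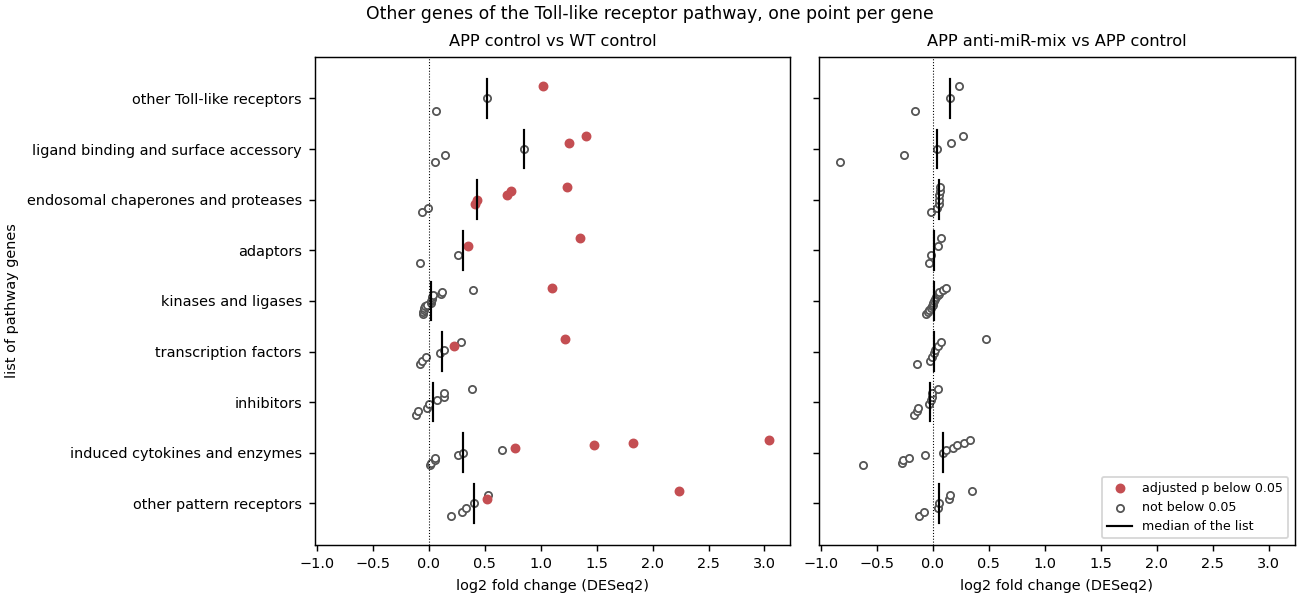
Log2 fold changes (x axis, DESeq2) of 68 further genes in 9 lists by role (y axis), 1 point per gene, for APP control against WT control (left) and APP anti-miR-mix against APP control (right). The lists include pattern receptors other than Toll-like receptors. Filled points had an adjusted p below 0.05 and black lines are list medians. On the left 19 points are filled, the farthest being Ccl3 at 3.04, and on the right none is.

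The lists of kinases, transcription factors and inhibitors came next. Of 15 kinases and ligases 1 was higher in APP control, Btk, a kinase of myeloid and B cells (1.10, SE 0.19), and the median of the list was 0.02, a count near the 3.66% of all genes. Irak4, the first kinase recruited by Myd88, had 0.39 (SE 0.15, adjusted p = 0.104), Irak1 had 0.12 (SE 0.04, adjusted p = 0.0666) and Ikbke 0.11 (SE 0.15). In APP anti-miR-mix relative to APP control Irak1, a known target of miR-146a-5p, had -0.03 (SE 0.04). Traf6, another such target that was singled out after its values were seen, had 0.01 (SE 0.06). Of 8 transcription factors 2 were higher, Irf5 (1.22, SE 0.19) and Nfkb1 (0.23, SE 0.07, adjusted p = 0.0431), whereas Rela (0.13) and Nfkb2 (0.29) did not pass. No inhibitor of the pathway was called among 8, with Irak3 at 0.39 (SE 0.15), Nfkbia at 0.14, Nfkbib at -0.09 and Tnfaip3, a deubiquitinase that restrains NF-kB, at -0.11. Against WT control, APP anti-miR-mix added Irak4 (0.51, adjusted p = 0.00576) and Irak3 (0.44, adjusted p = 0.0367) to the calls.

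Of 11 induced cytokines and enzymes tested, 4 were higher in APP control. The chemokine Ccl3 went from 27.9 ± 18.0 to 232 ± 118 normalized counts, a log2 fold change of 3.04 (SE 0.43), and Ccl4, a chemokine of the same family, had 1.82 (SE 0.31). Nlrp3, the sensor of an inflammasome, had 1.48 (SE 0.19) and Il1a 0.77 (SE 0.24, adjusted p = 0.0315). Of 7 other pattern receptors 2 were higher, Clec7a (Dectin-1, 2.24, SE 0.37) and Tmem173 (STING, 0.52, SE 0.16), and Cgas (0.30) and Ifih1 (0.41) did not pass. Clec7a is also a gene of the plaque-associated list above.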

How the data were processed

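RNA of CA1 was sequenced from a polyA-selected library per sample, with reads of 50 nt from a single end. As the labels and the study's methods state, the authors checked reads with FastQC 0.11.5, aligned them to mm10 with STAR 2.5.2b and counted them with featureCounts of Subread 1.5.1; the deposited values are raw counts per Ensembl gene. The annotation release, the strandedness and the handling of reads with several hits are not given in the sources used here, and all of these bear on genes that overlap or resemble another. The authors also deposited a log2 table of 18825 genes; its values equal log2(CPM + 1) minus 1 profile times a whole adjustment number per library, whose meaning is not stated, and it served only as an alternative.

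Identifiers were matched to GENCODE M21 (48349 of 48709). DESeq2 1.42.0 (R 4.3.3) was fitted to all 19 libraries without covariates, over the 19297 genes that reached 5 counts in 50% or more of the libraries, with Wald tests, Benjamini-Hochberg adjustment and a threshold of 0.05; counts were divided by its size factors to give normalized counts. Of these genes 1136 received no adjusted p in the comparisons with WT control and 13 in the other. Confidence intervals are Wald intervals at 95%. Groups came from the labels. Alternatives used edgeR 4.0.16, limma 3.58.1, other filters, scalings and groupings, and left out each library in turn; leaving out WT control 1 and 5, APP control 5 or APP control 5 and 6, and scaling to homeostatic genes, were chosen after seeing the data. The fits were tested on simulated data. The genes, lists and tests were chosen with earlier results of these data known. All 10 genes were named; from each pathway list at most 4 genes with the smallest adjusted p in APP control against WT control were named, plus any called between treated and untreated APPPS1-21 mice, and Traf6 was added after its values were seen, and Mb21d1 was carried under its symbol Cgas. Total counts of 19362343 to 37018917 per library set the precision.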

Additional observations from a re-analysis of the deposited data

Results flagged for a closer look

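Myd88 in WT control 1 had 218.8 normalized counts, and the other 5 WT control libraries had 161.9 to 182.6. The gap to the nearest library was 0.637 of the range of the group, above Dixon's critical value of 0.625 for 6 samples. Over the 30 groups examined (10 genes in 3 groups), chance alone gives about 1.5 such gaps. The same library also had the highest Tlr2 of its group, and its part in the Myd88 value was not tested.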

How the results depend on the processing

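The comparisons are, in order, the first APP control with WT control, the second APP anti-miR-mix with APP control, and the third APP anti-miR-mix with WT control. In the first and the third, Cd14, Tlr1, Tlr6, Tlr7 and Tlr13 stayed higher in all 29 alternatives that kept a scaling over all genes, while Tlr2 passed in 14 of the 29 in each, with adjusted p from 2.49e-06 to 0.180 in the first and from 4.14e-06 to 0.146 in the third. Leaving out 1 library at a time gave 666 to 1209 genes and 5 to 8 of the 10 genes called in the first comparison, 0 to 3 and 0 in the second, and 1169 to 2012 and 6 to 9 in the third. It moved the log2 fold change of Tlr3 between -0.044 and 0.10 in the first comparison. In the second it moved Tlr1 between -0.017 and 0.20, Tlr2 between -0.16 and 0.027, Tlr4 between -0.063 and 0.15 and Tlr13 between -0.088 and 0.070.

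In the second comparison 1 gene was called with the stricter filter, 3 with only the groups compared, 1 with the replicate block, 1 without WT control 1 and 5 and 14 without APP control 5 and 6, none of them among the 10 genes. Without APP control 5 and 6 it gave -0.12 for Tlr1, -0.039 for Tlr6 and -0.026 for Tlr9. With the adjustment number as a factor Tlr3 was -0.036 in the first comparison and Tlr13 0.0070 in the second. Same-numbered libraries had a median correlation of 0.398 (lowest -0.0948, with 14 of 18 pairs over 0.1) and other pairs of libraries from different groups one of -0.0459, and 7 of 18 libraries correlated best with their own number. Pairing would have needed all 18 pairs over 0.1, so the block was kept as an alternative, and whether a number marks a shared batch was not tested. The replicate block called 1222 genes in the first comparison and 2202 in the third, where 908 and 1727 were called without it, and gave 6, 0 and 8 of the 10 genes in the 3 comparisons, with Tlr13 at 0.039 in the second and Myd88 at 0.37 (DESeq2 adjusted p = 0.0112) in the third.

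Scaling to the microglia lineage genes, all higher in both APPPS1-21 groups than in WT control, turned signs. The first comparison then gave -0.14 for Tlr2, -1.04 for Tlr3, -0.38 for Tlr4, -0.046 for Tlr6, -0.66 for Tlr9 and -0.89 for Myd88, with Cd14 still called (0.62, DESeq2 adjusted p = 0.00139) and Tlr1 (0.13), Tlr7 (0.32) and Tlr13 (0.040) no longer. Tlr3 (DESeq2 adjusted p = 1.76e-05), Tlr9 (adjusted p = 0.000514) and Myd88 (adjusted p = 2.72e-05) passed as lower there, and the same 3 passed as lower in the third comparison. The lineage genes had a median log2 fold change of 1.11 in the first comparison, so this scaling lowers genes that changed less. These lower calls follow from the choice of scale, and the share of all genes called lower under it is not given. The second gave -0.075 for Tlr3, -0.14 for Tlr4, -0.0080 for Tlr6, -0.012 for Tlr7 and -0.070 for Myd88, and the third gave -0.38 for Tlr2, -1.11 for Tlr3, -0.51 for Tlr4, -0.054 for Tlr6, -0.58 for Tlr9, -0.10 for Tlr13 and -0.96 for Myd88, with Cd14 (0.35, DESeq2 adjusted p = 0.0604), Tlr1 and Tlr7 no longer called. For the second comparison the cause of the turned signs was not tested. Scaling to the homeostatic genes gave -0.65 for Tlr3, -0.29 for Tlr9 and -0.48 for Myd88 in the first, -0.020 for Tlr1, -0.091 for Tlr3, -0.21 for Tlr4, -0.026 for Tlr6, -0.082 for Tlr7 and -0.11 for Myd88 in the second and -0.077 for Tlr2, -0.74 for Tlr3, -0.21 for Tlr4, -0.23 for Tlr9 and -0.59 for Myd88 in the third. With it Tlr3 and Myd88 passed as lower in the first and the third comparison, Tlr2 and Tlr6 lost their calls in the first comparison, and Tlr6 and Tlr13 in the third, besides Tlr2 and Tlr9 that turned sign. The same limit holds for this scaling, as the homeostatic genes had a median log2 fold change of 0.85 in the first comparison.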
